A study of Mus musculus with 5 samples.

Results

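The loci described here carry mouse gene symbols that were given before a gene product was known. They were the genes whose symbol is Gm followed by a number, the form used for computer-predicted gene models, or ends in Rik, the form used for full-length complementary DNA clones of the RIKEN collection, and that reached at least 20 counts per 1000000 gene counts (CPM) in 2 or more of 5 libraries. Of 32531 gene rows, 3170 had such a symbol, and 169 of these passed the threshold, 13 with a Gm and 156 with a Rik symbol. The loci were thus chosen by their measured CPM in these same libraries, and their presence at these levels is a description. RefSeq listed 100 of the 169 under the same symbol and 67 as an older name of a gene since renamed, and did not match 2900097C17Rik and Gm17066. By its gene types 126 were protein-coding, 39 were long noncoding RNAs and 2 were transcribed pseudogenes. The last 2 kinds are called noncoding below.

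The libraries came from adult mice that combine the Rbp4-Cre KL100 driver line with a Rosa26-LSL-EGFP/Rpl10a allele, without treatment. Cre recombinase removes the stop cassette of that allele, so that cells in which the Rbp4 regulatory sequence is or was active make ribosomes with an EGFP-tagged large subunit protein. Polysomes were pulled down with anti-EGFP antibodies from separately homogenized tissues, a method called translating ribosome affinity purification (TRAP). Cerebral cortex gave 2 libraries and dentate gyrus 3, all of pulled-down RNA from this mouse line. Input RNA and mice without the tag were not analysed here. Separate animals are not stated for the replicates, and p-values therefore measure only the spread among the samples at hand, part of which may be technical.

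Symbols of this kind are provisional. Many such loci were later shown to encode conserved proteins and were renamed, whereas others are long noncoding RNAs or short reading frames whose products are little studied. Ribosome pulldown enriches RNA on tagged ribosomes, and it also recovers noncoding RNA that is bound to ribosomes or carried along. Presence of a locus in these libraries is therefore no measure of translation.

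Gene counts summed to 22600963 to 36837908 per library, and a floor of 3 counts was 0.0814 to 0.133 CPM, for counting error only. Summed levels of 8 markers of dentate granule cells were 256 and 258 CPM in the cortex libraries and 3969 to 4416 CPM in the dentate gyrus libraries, and each of the 8 was called higher in dentate gyrus. Those of 8 cortical projection neuron markers were 1494 and 1343 against 140 to 301 CPM, all 8 called higher in cortex. Some markers of other cells also moved with tissue. Summed levels of 8 interneuron markers were 908 and 897 against 186 to 223 CPM, with 5 called higher in cortex and 1 in dentate gyrus. Sst alone gave 700 and 641 against 113, 80.8 and 72.4 CPM of this. Astrocyte markers summed to 214 and 206 against 53.4 to 88.4 CPM, with 3 of 7 called higher in cortex, and oligodendrocyte markers to 230 and 311 against 164 to 225 CPM, with 2 of 7 called higher in cortex. Microglial markers summed to 0.911 to 8.74 CPM, with C1qa at 0 counts in all libraries, and vascular markers to 7.47 to 18.4 CPM. The genes Car8, Ebf1, Ebf2, Ebf3 and Pcp2, abundant in cerebellum or olfactory tissue, summed to 510 CPM in cortex replicate 1 and to 2.74 to 8.33 CPM in the other libraries. All 4 of these genes that were tested were called higher in cortex, so a call can rest on 1 high library. The part of these cell types in the differences below was not tested, and in such bulk samples fewer cells of a type and less RNA per cell cannot be told apart.

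Of all gene counts, the 169 loci together took 1.498% in cortex replicate 1, 1.503% in cortex replicate 2, and between 1.53% and 1.57% in dentate gyrus. Their mean of the tissue means ran from 14.4 to 752 CPM with a median of 42.8, and 43 loci were above 100 CPM. CPM in the text, other than at the threshold, uses library sizes with TMM scaling (trimmed mean of M values). The locus with the highest level was 2900011O08Rik, now Bmerb1, which encodes a protein with a bivalent Mical/EHBP Rab-binding domain. Its values were 684 and 680 CPM in cortex and 933, 825 and 708 CPM in dentate gyrus. All dentate gyrus values lay above the cortex values, but the difference was not called, with a log2 change of 0.27 (SE 0.13, adjusted p = 0.172 by edgeR). Per kilobase of exon it was also first among the 164 loci with a gene model, at 285 CPM per kilobase in cortex and 343 in dentate gyrus.

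Other abundant loci were called or not called. A830010M20Rik (Btbd8), which encodes a BTB-domain protein of synaptic vesicle recycling, was at 646 and 535 CPM in cortex and at 563, 555 and 573 CPM in dentate gyrus, with overlap between tissues. 6330403A02Rik (Stum), the homologue of a fly gene of mechanosensory transduction, was at 392 and 410 against 396, 381 and 422 CPM, and its log2 change was -0.01 (SE 0.11, adjusted p = 0.981). The libraries of both tissues were interleaved. Gm608 (Usf3), a helix-loop-helix transcription factor gene, was at 358 and 444 against 457, 418 and 464 CPM. Gm15800 (Hectd4), a HECT-type ubiquitin ligase gene, and D430041D05Rik had lower values in every dentate gyrus library than in any cortex library, at log2 changes of -0.25 and -0.24, and neither was called (adjusted p = 0.163 and 0.252).

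Of the 10 most abundant loci, 4 were called, all higher in dentate gyrus. Among genes with other symbols at the same threshold 36.1% were called, 19.3% higher in dentate gyrus. Among all genes tested these shares were 21.3% and 10.5%. B230219D22Rik, with a reading frame of 188 residues, was at 252 and 259 CPM in cortex and at 513, 474 and 537 CPM in dentate gyrus (log2 change 0.99, SE 0.12, adjusted p = 0.000319). 2510003E04Rik (Kifbp), which encodes a kinesin-binding protein needed for axon growth, was at 244 and 242 against 454, 392 and 415 CPM (0.79, SE 0.12, adjusted p = 0.00146). A830018L16Rik was at 267 and 188 against 442, 481 and 411 CPM (0.96, SE 0.16, adjusted p = 0.00247). These 3 loci were separated widely, with every dentate gyrus library at more than 1.5 times the highest cortex library. 9930021J03Rik, with a frame of 2027 residues, was at 481 and 474 against 752, 678 and 677 CPM (0.56, SE 0.11, adjusted p = 0.00517). The call was lost when cortex replicate 1 and dentate gyrus replicate 2 were both left out (adjusted p = 0.0572).

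**Figure D1:**
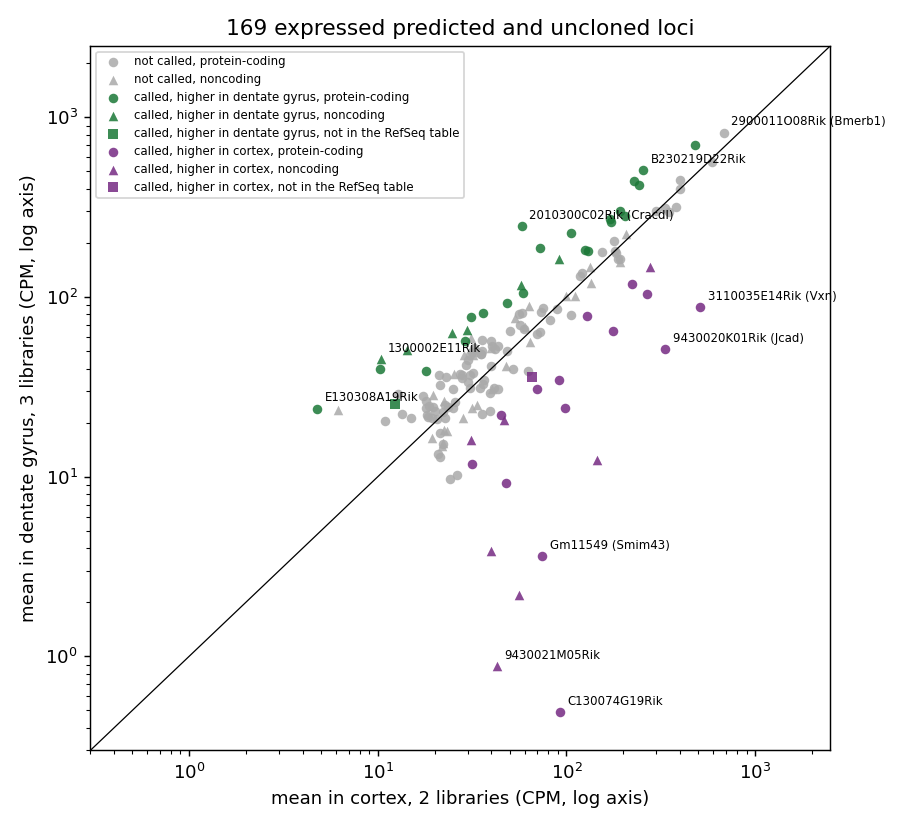
Mean CPM of each of the 169 loci in cortex (2 libraries, x axis) and dentate gyrus (3 libraries, y axis), both on log axes, with colour for the call, shape for the gene type and the line of equal levels. Most loci lie near the line, and a group of cortex-high loci lies far below it, down to C130074G19Rik with means of 92.6 and 0.487 CPM.

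The comparison asked which of these loci differ between the tissues in pulled-down RNA. Of the 169 loci, 28 were called with higher levels in dentate gyrus and 22 with higher levels in cortex at an adjusted p under 0.05, and 119 were not called. A locus was called in 21.3% of cases among all 14136 genes tested, with 10.5% and 10.8% in these directions. Among the 6346 genes with other symbols at the same threshold the share was 36.1%, with 19.3% higher in dentate gyrus and 16.8% in cortex, against 29.6% of the loci. The median log2 change was 0.16 over the 169 loci, 0.08 over those other symbols and 0.02 over all genes tested. In 94 loci no library of one tissue overlapped the other tissue, a share of 55.6%, whereas this held for 50.1% of all genes tested and 63.4% of other symbols at the threshold. The share of called loci thus lay between both backgrounds and was not tested against either. Of the 50 called loci, 31 changed at least 2-fold, 14 of them higher in dentate gyrus and 17 in cortex.

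The counts depended on the number of libraries. Without cortex replicate 1, 18 loci were called in each direction, and without cortex replicate 2 18 were called higher in dentate gyrus and 14 in cortex. Of the 50 calls, 25 held in each of 13 other fits, 12 higher in dentate gyrus and 13 in cortex, and no call changed direction in any of them.

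The threshold itself shaped part of this. It was met in all 5 libraries by 113 loci, in cortex libraries only by 15, in dentate gyrus libraries only by 12, and in some libraries of both tissues by 29. Loci that entered through cortex libraries only had to be higher there. Entry through dentate gyrus libraries only needed 2 of 3 libraries, which favoured higher levels there without fixing them. Of these loci 9 of the 15 and 6 of the 12 were called, which is no evidence for them as a group. Among the 113 loci at the threshold throughout, 22 were called higher in dentate gyrus and 11 in cortex, 29.2% in all, against 34.5% of the 4547 other symbols that met it throughout. In that background 19.8% were called higher in dentate gyrus and 14.7% in cortex, and among the 113 loci 19.5% and 9.73%. Tissues did not overlap in 64 of the 113 loci (56.6%), against 61.9% of that background. The lowest second-highest CPM without TMM scaling among the 169 was 20.2 for D930015E06Rik, 20.4 for A930005H10Rik and 20.5 for 4933427D14Rik. Just outside were 2210408I21Rik at 19.9, 9430016H08Rik at 19.8 and 6030419C18Rik at 19.6 CPM.

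**Figure D2:**
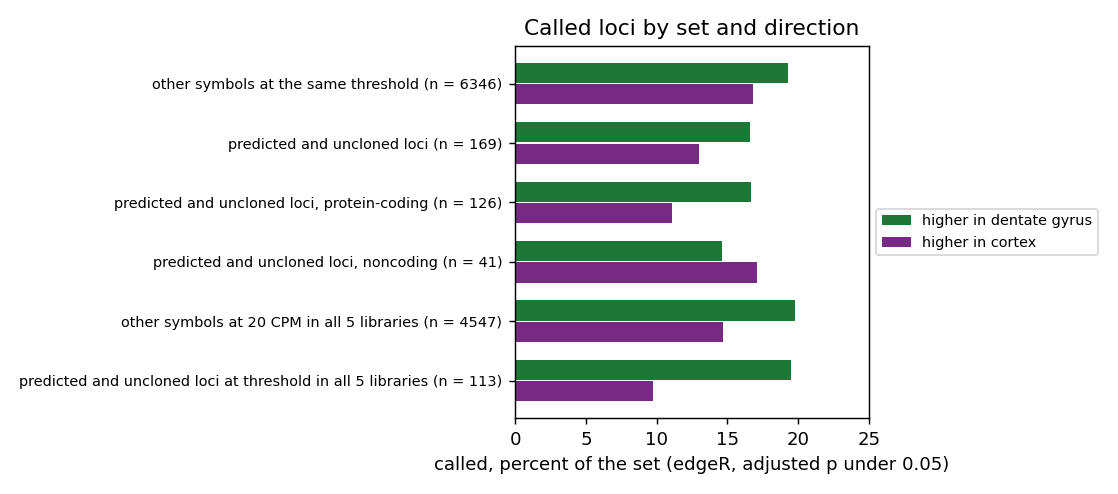
Percentage of each set called higher in dentate gyrus (green) or in cortex (purple) by edgeR at an adjusted p under 0.05, with the number of loci tested in the axis labels. The 169 loci, labelled predicted and uncloned in the figure, were called in 16.6% and 13.02% of cases, against 19.3% and 16.8% of other symbols at the same threshold.

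The largest difference was that of a coding locus, higher in cortex. C130074G19Rik (chromosome 1, 184871926 to 184883036, minus strand, GRCm38, the same build as mm10), with a frame of 141 residues in 2 exons, was at 79.9 and 105 CPM in cortex and at 0.497, 0.533 and 0.431 CPM in dentate gyrus. The dentate gyrus libraries lay close together at this low level, which rested on 41 reads in all. The locus had met the threshold in cortex libraries only, so its separation by tissue was set by the choice of loci. The log2 change was -7.56 (SE 0.31, adjusted p = 1.06e-06). The first 300 bases of its frame, of 426 with the stop codon, are printed because it showed the largest difference of the 169 loci, as GENCODE M21 gives them with the start codon in capitals.
C130074G19Rik: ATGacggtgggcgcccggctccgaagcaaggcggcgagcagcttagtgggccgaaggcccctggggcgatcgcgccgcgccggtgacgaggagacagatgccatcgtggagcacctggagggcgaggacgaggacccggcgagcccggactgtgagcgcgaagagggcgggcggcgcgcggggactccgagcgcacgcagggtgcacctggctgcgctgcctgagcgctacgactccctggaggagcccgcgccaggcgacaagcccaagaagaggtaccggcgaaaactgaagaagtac
Its nearest named gene, the kinase gene Mark1 on the same strand 13.6 kb away, was at 113 and 109 against 51.5, 62.3 and 76.8 CPM, a smaller change in the same direction (log2 -0.81, SE 0.21, adjusted p = 0.0203).

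The next coding loci higher in cortex were later-named genes, of which Gm11549 and 9330182L06Rik had also met the threshold in cortex libraries only. Gm11549 (Smim43), which encodes a small integral membrane protein, was at 79.6 and 69.3 CPM in cortex and at 1.32, 4.75 and 4.74 CPM in dentate gyrus (log2 -4.38, SE 0.48, adjusted p = 0.000193). 9430020K01Rik (Jcad), which encodes a protein of cell junctions known from endothelium, was at 281 and 387 against 40.8, 61.3 and 52.0 CPM (-2.70, SE 0.21, adjusted p = 2.08e-05). 3110035E14Rik (Vxn), which encodes vexin, a factor of neuronal differentiation, was at 564 and 461 against 71.8, 119 and 72.7 CPM (-2.55, SE 0.22, adjusted p = 4.36e-05). For Jcad and Vxn, at the threshold in all 5 libraries, the tissues were far apart relative to the spread of libraries. 9330182L06Rik (Elapor2), a gene of the endosome and lysosome associated apoptosis and autophagy regulator family, was at 49.2 and 47.0 against 3.89, 13.8 and 9.79 CPM (-2.40, SE 0.45, adjusted p = 0.00439), with the dentate gyrus libraries spread more widely than the cortex libraries. Summed levels of vascular markers, for comparison with Jcad, were 13.3 and 7.47 CPM in the cortex libraries and 8.91, 18.4 and 11.5 CPM in the dentate gyrus libraries.

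On the dentate gyrus side the largest fitted change was that of E130308A19Rik, a coding locus with a frame of 737 residues. It was at 6.93 and 2.63 CPM in cortex and at 28.1, 23.4 and 20.4 CPM in dentate gyrus (log2 2.32, SE 0.48, adjusted p = 0.00725), and it had entered through the dentate gyrus libraries. 2010300C02Rik (Cracdl), a relative of an actin capping protein inhibitor gene, was at 57.7 and 58.5 against 284, 219 and 241 CPM (2.09, SE 0.17, adjusted p = 2.67e-05). The cortex libraries of Cracdl were nearly equal, and dentate gyrus was about 4-fold higher in each library. A330050F15Rik (Akain1), which encodes a short inhibitor of protein kinase A anchoring, was at 15.6 and 5.01 against 33.6, 43.0 and 42.8 CPM (1.94, SE 0.45, adjusted p = 0.0131), with the cortex libraries 3.12-fold apart, and it too had entered through the dentate gyrus libraries. 2700081O15Rik was at 94.9 and 50.2 against 172, 196 and 194 CPM (1.37, SE 0.25, adjusted p = 0.00379).

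Smaller differences followed. 1810030O07Rik on the X chromosome was at 33.6 and 28.8 CPM in cortex and at 81.5, 82.4 and 69.2 CPM in dentate gyrus (log2 1.32, SE 0.22, adjusted p = 0.002). 1110059E24Rik was at 33.6 and 38.8 against 63.7, 78.2 and 103 CPM (1.17, SE 0.25, adjusted p = 0.00833), but its adjusted p was 0.0646 without cortex replicate 1. The long noncoding locus 2010204K13Rik, also on X, was at 38.0 and 21.7 against 64.7, 70.6 and 60.8 CPM (1.13, SE 0.28, adjusted p = 0.0163), and at an adjusted p of 0.132 without cortex replicate 2. Both were separated between tissues without a stable call. Of 8 loci on X, 2 were called (25%), against 21.3% of all genes tested and 36.1% of other symbols at the threshold. The sex of the animals is not in the labels.

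**Figure D3:**
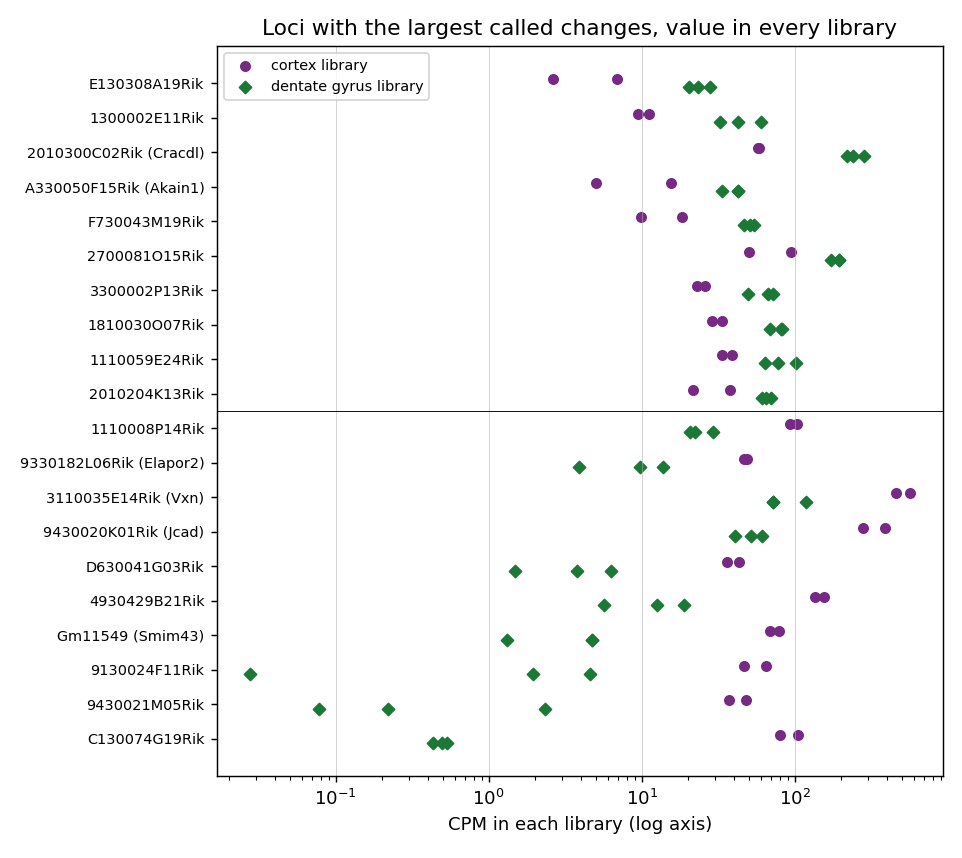
CPM in each library (log axis) for the 10 called loci with the largest change in each direction, cortex libraries as purple circles and dentate gyrus libraries as green diamonds. The loci were picked for tissues that do not overlap, and the widest scatter is among dentate gyrus libraries of cortex-high loci, where 9130024F11Rik runs from 0.0276 to 4.58 CPM.

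Later-named coding loci were also read by the role of their product, from lists drawn up with earlier results of these data known, and 26 of 33 listed symbols were among the 169. The lists are short, so counts of called loci in them are descriptions. Of all genes tested 21.3% were called, and of other symbols at the threshold 36.1%. Of 4 loci for products of the cytoskeleton, 3 were called, Cracdl higher in dentate gyrus and 1110008P14Rik and C530008M17Rik (Cracd) higher in cortex. 1110008P14Rik, which encodes the small coiled-coil protein bublin, was at 103 and 93.5 against 29.3, 22.3 and 20.7 CPM (log2 -2.03, SE 0.23, adjusted p = 0.000215). Its exons share 728 bases with exons of Ciz1 on the opposite strand, so that without a known strand setting their reads may not be told apart, and Ciz1 was at 55.7 and 66.4 against 55.0, 58.7 and 47.1 CPM. Cracd, an inhibitor of actin capping protein, was at 36.2 and 53.2 against 17.4, 29.3 and 19.2 CPM (-1.02, SE 0.31, adjusted p = 0.0431). The related genes Cracd and Cracdl thus had log2 changes of opposite sign. The Cracd call was lost without cortex replicate 1 (adjusted p = 0.056), cortex replicate 2 (0.284), dentate gyrus replicate 1 (0.0886) or dentate gyrus replicate 3 (0.103), and also under a replicate block (0.0804).

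Of 6 loci for membrane, secreted and neuronal differentiation products, Vxn was called higher in cortex and 1810041L15Rik (Shisal1) higher in dentate gyrus. Shisal1, a Shisa-like membrane protein gene, was at 117 and 94.4 against 264, 203 and 215 CPM (log2 1.10, SE 0.17, adjusted p = 0.00159). The other 4 were not called. They were D430041D05Rik, A730017C20Rik (Minar2) at 121 and 120 against 132, 116 and 159 CPM, 1190002N15Rik (Dipk2a) at means of 43.4 ± 6.48 (SD, n = 2) against 30.6 ± 5.08 CPM (SD, n = 3), and D630045J12Rik at 184 and 189 against 171, 184 and 135 CPM. Dipk2a values did not overlap between tissues but its adjusted p was 0.209.

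Of 6 loci for endosome, trafficking and lipid transfer products, 1 was called. A230046K03Rik (Washc4), a subunit of the WASH complex that nucleates actin on endosomes, was at 32.0 and 25.6 CPM in cortex and at 58.4, 39.9 and 73.1 CPM in dentate gyrus (log2 0.99, SE 0.29, adjusted p = 0.0394). The Washc4 call was lost without cortex replicate 1 (0.0908), cortex replicate 2 (0.234), dentate gyrus replicate 1 (0.0732) or dentate gyrus replicate 3 (0.132), and also under a replicate block (0.109). Both large lipid transfer protein genes of this list were not called, 2610507B11Rik at 302 and 295 against 334, 277 and 296 CPM and 4932438A13Rik at 197 and 185 against 138, 205 and 149 CPM. 2310035C23Rik (Relch), a regulator of cholesterol transport from recycling endosomes, was at 51.2 and 48.8 against 64.0, 62.7 and 68.3 CPM (adjusted p = 0.217). 0610009B22Rik and 9130011E15Rik (Armh3) overlapped between tissues.

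Of 4 loci for RNA-binding and RNA-processing products, 1 was called. All 4 had higher values in dentate gyrus without overlap between tissues, which also held in either direction for 63.4% of other symbols at the threshold. 2810403A07Rik (Khdc4), a KH-domain splicing factor gene, was at 134 and 118 against 168, 174 and 207 CPM (log2 0.54, SE 0.16, adjusted p = 0.0373). The Khdc4 call was lost without cortex replicate 1 (0.0787), cortex replicate 2 (0.252), dentate gyrus replicate 2 (0.0577) or dentate gyrus replicate 3 (0.144), and also under a replicate block (0.143). 2700060E02Rik (Rtraf), which encodes an RNA transcription, translation and transport factor, was at 23.6 and 18.6 against 36.0, 34.7 and 39.6 CPM (0.80, SE 0.27, adjusted p = 0.0597, and 0.0115 by DESeq2). 1110037F02Rik (Virma), a subunit of the RNA N6-adenosine methyltransferase complex, was at 36.3 and 35.1 against 54.2, 45.5 and 49.9 CPM (adjusted p = 0.165). 2310036O22Rik (Trir) was at 25.6 and 29.3 against 43.5, 37.8 and 30.5 CPM (adjusted p = 0.291).

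None of 2 mitochondrial and 2 cilium loci was called. 2010107E04Rik (Atp5mpl), a small subunit of ATP synthase, was at 82.2 and 56.9 against 66.4, 66.6 and 52.9 CPM, and 1700021F05Rik (Mtres1) was at 49.8 and 32.4 against 31.8, 37.3 and 24.2 CPM. 2410089E03Rik (Cplane1), a ciliogenesis gene, was at 38.6 and 31.5 against 46.7, 40.1 and 57.2 CPM, and 4930402H24Rik was at 36.7 and 24.98 against 23.5, 25.8 and 44.1 CPM. Adjusted p-values of these 4 loci were 0.25 to 0.987.

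Short reading frames were a feature that the choice of loci had not used. Of 123 coding loci with a complete frame in GENCODE, 9 (7.32%) had at most 100 residues, against 95 of 6072 (1.56%) of other symbols at the threshold, and median lengths were 392 and 530 residues. Of the 9, 5 were called (55.6%), 3 of them higher in dentate gyrus. Of all genes tested 21.3% were called and of other symbols at the threshold 36.1%, and the difference was not tested. Smim43 and Akain1 had met the threshold in every library of the tissue where they were higher and in no other, which fixed their direction. Smim43 and 1110008P14Rik were the cortex-high ones. Akain1, D430019H16Rik and 2700089E24Rik (Smim10l1) were the dentate gyrus-high ones, with D430019H16Rik at 171 and 174 against 278, 233 and 275 CPM (log2 0.60, SE 0.14, adjusted p = 0.0129) and Smim10l1 at 202 and 205 against 254, 320 and 275 CPM (0.48, SE 0.14, adjusted p = 0.0392). The largest adjusted p on leaving out libraries was 0.078 for D430019H16Rik and 0.274 for Smim10l1. Not called were 0610012G03Rik, Atp5mpl, 2210013O21Rik (Nbdy), a microprotein gene of messenger RNA decapping, and 1500011K16Rik (Mtln), a microprotein gene of the inner mitochondrial membrane. Mtln was at 22.04 and 23.3 against 15.98, 24.5 and 23.5 CPM, and its libraries overlapped.

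Frames are printed for the 3 short-frame loci with the largest changes and for Mtln as one that was not called, each with its start and stop codon in capitals, to show how short the coding sequence behind these values is. They come from GENCODE M21 transcripts on GRCm38, where 1110008P14Rik lies on chromosome 2, Gm11549 on chromosome 3, A330050F15Rik on chromosome 17 and 1500011K16Rik on chromosome 2. They code for 83, 63, 69 and 56 residues.
1110008P14Rik: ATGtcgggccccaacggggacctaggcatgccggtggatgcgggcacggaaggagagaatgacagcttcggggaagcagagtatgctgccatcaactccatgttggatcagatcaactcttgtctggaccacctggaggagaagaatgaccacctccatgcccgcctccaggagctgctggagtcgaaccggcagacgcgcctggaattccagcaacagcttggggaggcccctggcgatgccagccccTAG
Gm11549 (Smim43): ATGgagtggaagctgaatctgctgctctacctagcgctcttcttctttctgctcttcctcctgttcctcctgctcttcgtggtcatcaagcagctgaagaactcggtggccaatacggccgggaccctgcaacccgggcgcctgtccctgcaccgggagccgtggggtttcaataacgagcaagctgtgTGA
A330050F15Rik (Akain1): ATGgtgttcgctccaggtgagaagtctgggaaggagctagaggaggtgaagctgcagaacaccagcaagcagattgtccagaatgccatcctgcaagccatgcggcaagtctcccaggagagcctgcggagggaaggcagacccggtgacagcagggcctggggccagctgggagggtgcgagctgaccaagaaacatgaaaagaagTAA
1500011K16Rik (Mtln): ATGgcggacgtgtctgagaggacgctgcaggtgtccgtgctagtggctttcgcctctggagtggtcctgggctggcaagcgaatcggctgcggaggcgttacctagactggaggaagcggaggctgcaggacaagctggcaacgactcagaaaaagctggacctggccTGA
The frames are short beside the exons counted. The exons of 1110008P14Rik span 2.69 kb and those of Gm11549 span 2.83 kb, against frames of 252 and 192 bases with the stop codon, so that reads counted for these loci need not lie in the frame.

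Noncoding loci had a median level of 38.2 CPM, against 44.6 CPM for coding loci, and the highest was at 215 CPM. Per kilobase of exon the medians were 9.59 CPM in cortex and 9.90 in dentate gyrus for noncoding loci, and 10.97 and 12.1 for coding loci. Of 41 noncoding loci, 6 were called higher in dentate gyrus and 7 in cortex (31.7%), with a median log2 change of -0.14. Of 126 coding loci, 21 and 14 were called (27.8%), with a median of 0.20. Among loci at the threshold in all libraries, 5 of 22 noncoding and 27 of 90 coding loci were called. Of these calls, 4 noncoding and 18 coding ones were dentate gyrus-high, and 1 and 9 were cortex-high. Median log2 changes in this subset were 0.28 for noncoding and 0.20 for coding loci. The negative noncoding median was thus not kept without loci that met the threshold in only some libraries. Called shares were 21.3% of all genes tested, 36.1% of other symbols at the threshold and 34.5% of other symbols at it in all 5 libraries. The difference between the kinds was not tested.

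Of the abundant noncoding loci, B230209E15Rik was at 232 and 181 CPM in cortex and at 247, 248 and 179 CPM in dentate gyrus. B230217C12Rik was at 194 and 191 against 180, 159 and 129 CPM, and 1500004A13Rik at 144 and 124 against 140, 179 and 121 CPM. None of these 3 was called, though every dentate gyrus value of B230217C12Rik lay below its cortex values. RefSeq types B230217C12Rik as noncoding, whereas GENCODE gives it a reading frame of 139 residues. GENCODE gives such a frame for 3 of the 41 noncoding loci. 1700020I14Rik (Oip5os1), known as Cyrano and for its part in the decay of the microRNA miR-7, was at 123 and 147 against 120, 107 and 134 CPM (log2 -0.17, SE 0.17, adjusted p = 0.558). Gm20300, a single-exon locus on chromosome 10, was higher in cortex at 303 and 252 against 146, 158 and 135 CPM (-0.92, SE 0.14, adjusted p = 0.00158). 4933431E20Rik was higher in dentate gyrus at 88.2 and 94.8 against 165, 140 and 187 CPM (0.84, SE 0.17, adjusted p = 0.00725), with an adjusted p of 0.0525 without cortex replicate 1.

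The noncoding loci with the largest changes were cortex-high. 9430021M05Rik was at 47.8 and 37.5 CPM in cortex and at 0.221, 2.35 and 0.0783 CPM in dentate gyrus (log2 -5.65, SE 0.97, adjusted p = 0.00268). Dentate gyrus replicate 3 lay under the floor of 3 counts for that library, 0.117 CPM, and dentate gyrus replicate 2 held most of the signal there. 9130024F11Rik was at 46.4 and 65.1 against 0.0276, 1.95 and 4.58 CPM (-4.69, SE 1.002, adjusted p = 0.00836), with dentate gyrus replicate 1 under its floor of 0.0814 CPM. Its call was lost with robust dispersion (0.0722) and when cortex replicate 1 and dentate gyrus replicate 2 were both left out (0.0688). 4930429B21Rik was at 136 and 155 against 12.7, 18.8 and 5.64 CPM (-3.56, SE 0.40, adjusted p = 0.000218), and D630041G03Rik at 43.1 and 36.3 against 1.49, 6.35 and 3.76 CPM (-3.37, SE 0.52, adjusted p = 0.00147). All 4 loci had met the threshold in cortex libraries only, which fixed the separation of their tissues. The ratio of the highest to the lowest library was from 3.33 to 166 over 3 dentate gyrus libraries, and at most 1.40 over 2 cortex libraries. The ratio of 166, that of 9130024F11Rik, has its lowest value under the floor.

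Noncoding loci higher in dentate gyrus changed less. 1300002E11Rik was at 11.2 and 9.48 CPM in cortex and at 42.7, 60.7 and 32.7 CPM in dentate gyrus (log2 2.13, SE 0.34, adjusted p = 0.00165). F730043M19Rik was at 9.92 and 18.5 against 50.8, 54.6 and 46.8 CPM (1.84, SE 0.32, adjusted p = 0.0028), and 3300002P13Rik at 26.1 and 23.1 against 67.2, 49.5 and 72.1 CPM (1.35, SE 0.25, adjusted p = 0.00431). Of these 3 only 3300002P13Rik was at the threshold in all 5 libraries. The other loci met it in every dentate gyrus library and in no cortex library, which fixed their separation. 1300002E11Rik shares 227 exon bases with Map3k13 on the same strand, and Map3k13 was at 89.8 and 52.8 against 79.1, 88.6 and 71.9 CPM.

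The promoter windows of the noncoding loci with the largest change in each direction are printed because they differ in base composition. Both run from 250 bases before to 50 bases after the annotated start, 5′ to 3′ on the plus strand of GRCm38.p6 as RefSeq gives it. The window of 9430021M05Rik is chr2:162660913-162661212, and capitals mark GGGCGGG on either strand. That of 1300002E11Rik is chr16:21794097-21794396, and capitals mark TGACGTCA, the cAMP response element, which reads the same on both strands.
9430021M05Rik: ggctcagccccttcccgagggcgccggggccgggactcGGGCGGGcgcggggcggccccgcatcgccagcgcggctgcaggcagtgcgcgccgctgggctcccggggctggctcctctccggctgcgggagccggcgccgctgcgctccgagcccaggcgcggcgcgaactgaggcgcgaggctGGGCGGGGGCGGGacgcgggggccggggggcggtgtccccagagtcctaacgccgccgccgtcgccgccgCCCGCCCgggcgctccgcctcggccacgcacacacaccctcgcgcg
1300002E11Rik: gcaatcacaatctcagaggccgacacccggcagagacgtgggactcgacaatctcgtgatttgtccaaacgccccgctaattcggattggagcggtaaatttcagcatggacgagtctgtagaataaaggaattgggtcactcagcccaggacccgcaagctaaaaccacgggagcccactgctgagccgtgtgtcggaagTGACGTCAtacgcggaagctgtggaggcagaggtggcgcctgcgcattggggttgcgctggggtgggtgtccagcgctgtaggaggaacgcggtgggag
The first window holds 52 CpG dinucleotides at 83.3% G and C, with 4 matches to GGGCGGG that begin at -212, -66, -60 and 4 from the start, of which those at -66 and -60 overlap. The second holds 23 CpG at 58.7%, with 1 match to TGACGTCA at -49. Neither window holds CAGATG or TATAAA on either strand.

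Across 141 loci with a promoter in the table, GGGCGGG was found in 41.1%, TGACGTCA in 4.26%, CAGATG in 9.93% and TATAAA in 8.51%. Among 4832 other symbols at the threshold these shares were 50.8%, 3.54%, 9.85% and 5.84%, and among all 32851 RefSeq promoters 25.6%, 1.79%, 17.2% and 13.6%. Windows with a CpG observed-to-expected ratio over 0.6 and over 50% G and C made up 65.2% of the loci's promoters, 72.4% for coding and 44.4% for noncoding loci. Of other symbols at the threshold 76.0% had such a window, and of all promoters 33.3%. A match is a description of letters and shows no binding.

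C130071C03Rik, the human counterpart of which is LINC00461, contains the microRNA gene Mir9-2. The 2 mature products are printed with the seed, bases 2 to 8, in capitals, because the counts of this locus are of its long transcript and do not measure them. They lie on chromosome 13 at 83738821 to 83738843 and 83738858 to 83738879 on the plus strand.
miR-9-5p: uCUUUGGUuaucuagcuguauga
miR-9-3p: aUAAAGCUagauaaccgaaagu
The seeds differ, so the arms belong to separate seed families. The host transcript was at 56.7 and 70.1 CPM in cortex and at 90.0, 93.1 and 84.0 CPM in dentate gyrus. The tissues did not overlap, with a log2 change of 0.49 (SE 0.19) that was not called by edgeR (adjusted p = 0.0982) and was called by DESeq2 (0.0405). Its nearest named gene, the transcription factor gene Mef2c at 54.3 kb, changed the other way, at 1588 and 1645 against 643, 612 and 599 CPM (log2 -1.39, SE 0.09, adjusted p = 9.99e-06).

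Annotated neighbours of any kind were counted first. An opposite-strand start within 1000 bases, on either side of the locus start, was annotated for 51 of 164 loci with a gene model (31.1%). This held for 34 of 125 coding (27.2%) and 17 of 37 noncoding ones (45.9%), and for 1483 of 6097 other symbols at the threshold (24.3%). Pairs transcribed away from each other and pairs that overlap at their starts were both counted. Of the 51 partners, 17 had a Gm, Rik or clone symbol themselves. Of the 51 loci, 14 were called (27.5%). Exons of 57 loci overlapped exons of a gene on the opposite strand, and 12 of these were called (21.1%). Of all genes tested 21.3% were called, and of other symbols at the threshold 36.1%. The strand setting of the counting is not known from the labels, so reads in shared bases may not be told apart. Reads classed as ambiguous were not counted for any gene.

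The nearest named gene had been tested for 136 loci, and 31 of these neighbours (22.8%) were themselves called. Of 38 called loci among the 136, 11 had a neighbour called in the same direction. For 2 it was called in the other direction, and for 25 it was not called. Several of the 11, among them 9430021M05Rik, Elapor2, C130074G19Rik, F730043M19Rik and Gm17066, had met the threshold in every library of the tissue where they were higher and in no other. The same held for 2410016O06Rik among the 2. The choice of loci thus fixed their direction, and neighbour pairs of other genes were not counted. A locus and its neighbour share libraries, and in overlapping pairs their reads may not be told apart, so these counts are a description.

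A pair with large changes in both genes was 9430021M05Rik and Ptprt, a receptor-type protein tyrosine phosphatase gene whose annotated start lies 16 bases away on the opposite strand. Ptprt was at 175 and 214 CPM in cortex and at 9.60, 16.8 and 6.38 CPM in dentate gyrus (log2 -4.16, SE 0.35, adjusted p = 3.67e-05). For both genes dentate gyrus replicate 2 was the highest and replicate 3 the lowest of the dentate gyrus libraries. Summed cortical projection neuron markers were also highest in dentate gyrus replicate 2, at 301 CPM against 140 in replicate 1 and 174 in replicate 3. A high replicate 2 was thus not particular to this pair, and its cause was not tested.

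Other neighbours called in the same direction changed by different amounts. Grm3, a metabotropic glutamate receptor gene 3.72 kb from Elapor2, was at 48.7 and 67.7 against 5.02, 9.73 and 14.3 CPM (log2 -2.59, SE 0.41, adjusted p = 0.00152). Atxn7l1, with a start 96 bases from that of F730043M19Rik, was at 136 and 145 against 277, 212 and 224 CPM (0.76, SE 0.16, adjusted p = 0.0075), a smaller change than the noncoding locus had. Parvg, an actin-binding parvin gene 36.2 kb from Shisal1, was at 0.827 and 0.246 against 47.5, 28.2 and 13.1 CPM. The 2 pairs with opposite calls were 2700081O15Rik with Rtn3, a reticulon gene at 2652 and 2257 against 1533, 1755 and 1781 CPM, and 2410016O06Rik (Riox1) with Numb, at 48.4 and 51.4 against 15.5, 18.6 and 11.7 CPM. Riox1 was at 19.1 and 16.8 against 40.7, 49.5 and 26.4 CPM (1.12, SE 0.32, adjusted p = 0.035, and 0.217 when cortex replicate 1 and dentate gyrus replicate 2 were both left out).

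**Figure D4:**
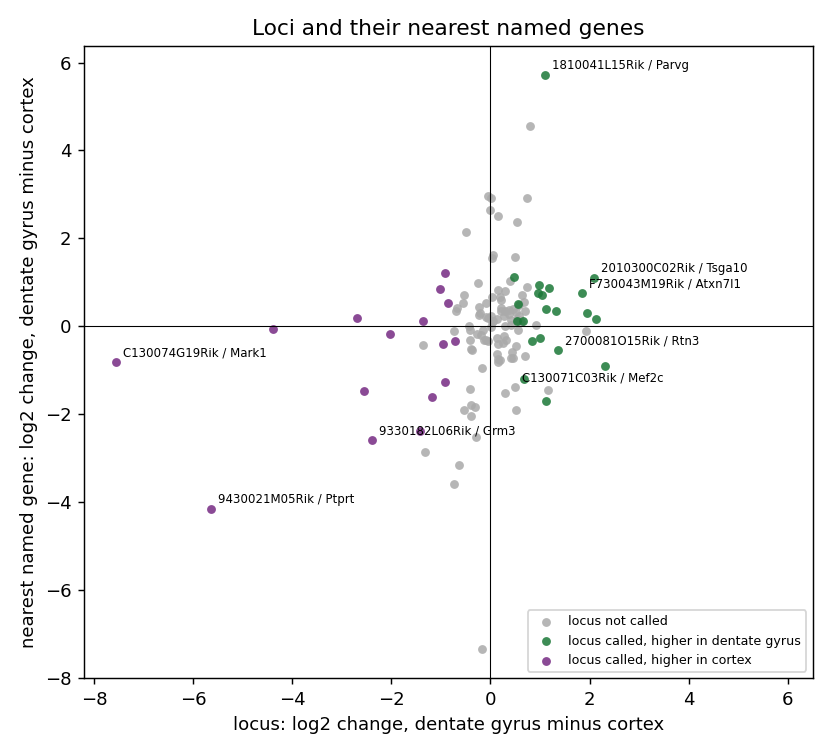
Log2 change (dentate gyrus minus cortex) of each locus (x axis) and of its nearest named gene (y axis), coloured by the call of the locus, for 135 of the 136 loci whose neighbour was tested. The pair 9430021M05Rik with Ptprt lies at the lower left, and C130074G19Rik lies far left beside a smaller change of Mark1.

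Replicates of the same tissue differed in some loci as much as the tissues did in others. The ratio of the highest to the lowest library had a median of 1.22 in cortex and 1.39 in dentate gyrus, and 1.18 and 1.33 for other symbols at the threshold. It is taken over 2 cortex and 3 dentate gyrus libraries and grows with their number, so it does not compare the spread of the tissues. It was over 2 for 8 loci (4.73%) in cortex and 17 (10.1%) in dentate gyrus, against 3.75% and 9.57% of the other symbols. The largest cortex ratio was 5.18 for 4833422C13Rik, followed by 3.42 for D930015E06Rik (Tmem131l), which was at 16.99 and 4.96 CPM in cortex and at 20.5, 18.2 and 22.2 CPM in dentate gyrus. Tmem131l was not called (adjusted p = 0.253) but was called without cortex replicate 1 (0.028).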

How the data were processed

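Raw counts of reads per gene symbol were deposited for 5 libraries, 1 table each. STAR 2.0.0e, HTSeq and the mm10 build are named per the submitters' processing notes. For the HTSeq version, the annotation and the strand setting, the sources used here give nothing. Summary classes that name no gene (reads without a feature were 10.6% to 14.8%, ambiguous reads 1.81% to 1.87% and non-unique reads 25.03% to 31.8%) stayed out of library sizes and of all tests. Reads that map to several places were not counted, which can lower loci with near-identical copies.

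The comparison, dentate gyrus minus cortex, used the edgeR 4.0.16 quasi-likelihood F test in R 4.3.3 on all genes after filterByExpr (14136 genes), with TMM scaling, tissue as the only term and Benjamini-Hochberg adjustment over all genes tested. Loci with an adjusted p under 0.05 were called. Unless another tool is named, adjusted p-values are from this fit. Changes are log2 with a standard error (SE). The procedure was tested on simulated counts.

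The loci and gene lists were chosen with earlier results of these data known. Loci named with values were the 10 of highest mean CPM, the 10 called without overlap with the largest change in each direction, the role lists, the loci nearest the threshold, up to 4 with a called neighbour, and the 6 noncoding loci of highest mean CPM, 59 in all. D430019H16Rik, Smim10l1, Mtln, Nbdy, 0610012G03Rik, Riox1 and 4833422C13Rik are named outside this rule, after their values were seen. One neighbouring gene, also a marker, is not reported here.

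Positions, exons and frames came from GENCODE M21, and gene types, promoters and microRNAs from RefSeq on GRCm38.p6. Alternatives were median-of-ratios scaling, DESeq2 1.42.0, limma 3.58.1 voom, no filter, a stricter filter, robust dispersion, a replicate block, leaving out libraries and other thresholds of membership. Python 3.11.15 and matplotlib 3.10.9 were used for the figures.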

Additional observations from a re-analysis of the deposited data

How the results depend on the processing

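The loci called higher in dentate gyrus and in cortex were 28 and 22 as reported, with 3009 genes called in all. Counts stayed within 1.5 times of these with median-of-ratios scaling (28 and 22), DESeq2 (36 and 24), limma voom (30 and 24), no filter (33 and 25), a stricter filter (30 and 23) and robust dispersion (29 and 21). Leaving out 1 library gave 18 to 25 loci higher in dentate gyrus, 14 to 21 higher in cortex and 1886 to 2775 genes in all, lowest without a cortex library. With cortex replicate 1 and dentate gyrus replicate 2 both left out, 18 loci were higher in dentate gyrus, 17 in cortex, and 1578 genes were called. With a membership threshold of 50 CPM (87 loci) 22 and 14 were called, and with 20 CPM in all 5 libraries (113 loci) 22 and 11, where fewer loci entered. With 10 CPM (261 loci) these were 36 and 30. None of the 50 called loci changed direction in any of the 13 fits. Of the 59 named loci, 7 that were not called changed sign in at least 1 fit (1500004A13Rik, Atp5mpl, 2610507B11Rik, 4930402H24Rik, Stum, Btbd8 and B230209E15Rik), so no direction is read for them. Whether replicate numbers pair the libraries is not in the labels. Deviations of same-numbered libraries correlated at -0.004 and -0.0163. These values cannot decide it, because the deviations of 2 cortex libraries from their mean mirror each other. A replicate block left 23 and 18 loci and 2237 genes called. With 2 cortex libraries, a fit without 1 of them assumes that the lone library varies like those of dentate gyrus. Simple counting error does not limit these loci, apart from those near 3 counts in a library.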
